A study of Mus musculus with 8 samples.

Results

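Cytochrome P450 genes were examined in RNA-seq libraries of epithelial cells from the distal colon of mice homozygous for a mutant Degs2 allele (Degs2_KO, 4 libraries) and of wild-type mice (WT, 4 libraries). The members were the protein-coding genes of P450 families 1, 2, 3, 4, 11, 17, 24, 27 and 39, chosen by symbol, without a failed estimate in any library. They numbered 89 of the 54141 genes in the table. Both groups were on the c57bl6/j background, and no age, sex or treatment is given for either. Degs2 encodes a sphingolipid desaturase and hydroxylase, and the question set by the design is what differs in colonic epithelial RNA when Degs2 is mutant. The cells were released with EDTA from pieces of distal colon. Whether every library is a different animal is not stated in the labels, and p-values therefore refer to the variation among these libraries, part of which may be technical.

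Cytochromes P450 are haem enzymes that insert oxygen into steroids, fatty acids, vitamins and foreign compounds. Those of the endoplasmic reticulum take electrons from the reductase Por, and those of mitochondria from ferredoxin (Fdx1) and its reductase (Fdxr). In the gut epithelium they are known for drug metabolism in the absorptive cells and for hydroxylating and epoxidising fatty acids such as arachidonic acid.

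Deposited counts, which had been scaled between libraries, totalled between 41622927 and 44606092 per library. They stood for an estimated 32800000 (WT replicate 1) to 49800000 (WT replicate 2) fragments, so that 3 fragments, the limit that a count of 0 allows, corresponded to between 0.0602 and 0.0914 CPM (counts per library scaled to a common total), for counting error only. Degs2 was at 53.3, 47.7, 65.6 and 65.9 CPM in Degs2_KO replicates 1 to 4, against 151, 110, 106 and 120 CPM in WT replicates 1 to 4. The means were 58.2 ± 9.08 CPM in Degs2_KO and 122 ± 20.1 CPM in WT (SD, n = 4 each), with no overlap, a log2 fold change of -1.07 ± 0.15 (SE) with an unadjusted p of 4.94e-05 and an adjusted p of 0.796 by edgeR's quasi-likelihood test. Epithelial genes such as Epcam and Cdh1 summed to between 13822 and 15568 CPM in Degs2_KO libraries and between 13096 and 16832 CPM in WT libraries (9 of 9 markers present). Degs2_KO replicate 3 and WT replicate 1 stood apart from the other libraries. Hoxd13, a transcription factor gene of the posterior gut, had 0.312 CPM in Degs2_KO replicate 3 and 0.699 CPM in WT replicate 1, whereas no other library had less than 38.8 CPM. The P450 counts, their median and the values of some genes are therefore also given without both libraries.

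Of the 89 P450 genes, 33 passed the filter on low counts and were tested. Another 33 had some fragments but did not pass, and 23 were listed at 0 in all 8 libraries. A mean of at least 10 CPM was reached by 20 genes, and a mean between 1 and 10 CPM by 9. All 5 tested genes below 1 CPM were Cyp2c23, Cyp2c40, Cyp2c67, Cyp4x1 and Cyp27b1. Among the genes listed at 0 throughout were Cyp1a2, Cyp2c29, Cyp4a14, Cyp3a16 and 4 of the 5 Cyp2b genes. All genes with a mean of at least 10 CPM belonged to families 2, 3, 4, 27 and 39.

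Per kb of exon, Cyp2c55 had the highest P450 level, with a mean over the 8 libraries of 464 CPM per kb. Cyp2c55 is a fatty acid hydroxylase known from the mouse colon. Cyp2d34 followed at 84.7 CPM per kb, then Cyp2c65 at 58.2, Cyp4f14 at 47.2, Cyp3a13 at 46.8, Cyp2c68 at 46.04, Cyp2s1 at 27.5 and Cyp2j6 at 19.4 CPM per kb. Cyp2d10 (16.7), Cyp4f16 (16.4), Cyp4f40 (14.6) and Cyp2d26 (13.0 CPM per kb) completed the 12 highest. Cyp2c65, Cyp4f14, Cyp3a13 and Cyp2c68 overlapped in their library values and are not ordered beyond that spread. With the longest transcript as the length, 11 of these 12 remained.

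**Figure D1:**
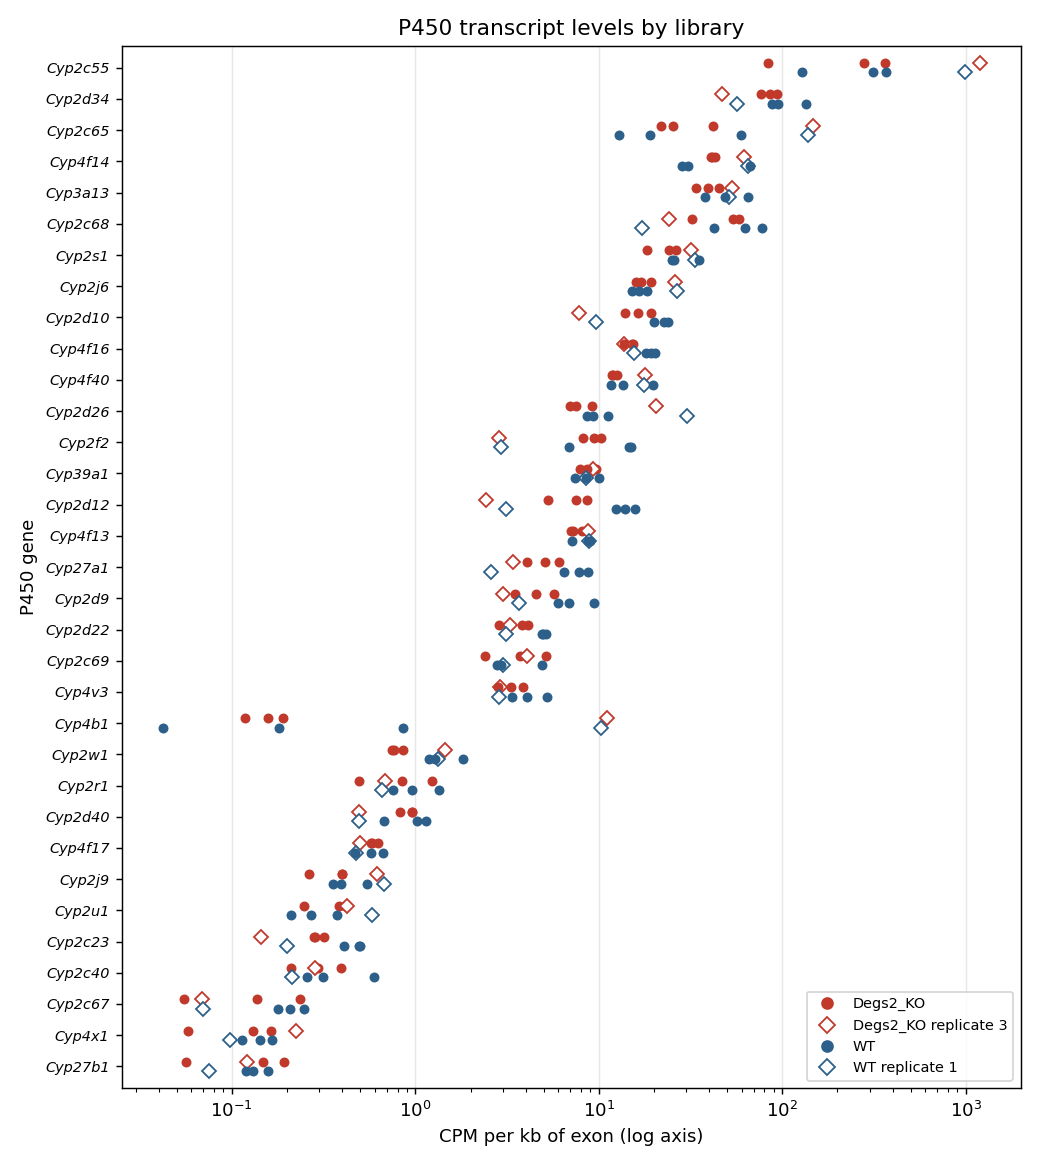
Levels of the 33 tested P450 genes, one row per gene, as CPM per kb of exon on a log axis. Red symbols are Degs2_KO and blue symbols WT libraries, with open diamonds for Degs2_KO replicate 3 and WT replicate 1; Cyp2c55 lies highest and the diamonds sit at the right or left edge of many rows.

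The summed level of all P450 genes followed Cyp2c55. It was 1882, 1675, 3696 and 1086 CPM in Degs2_KO replicates 1 to 4, against 3323, 1357, 1867 and 2279 CPM in WT replicates 1 to 4. Cyp2c55 alone made up between 15.3% and 64.3% of that sum in Degs2_KO libraries and between 18.7% and 59.1% in WT libraries. Without Cyp2c55 the sum was 1129 ± 165 CPM in Degs2_KO and 1313 ± 189 CPM in WT (SD, n = 4 each), and the ranges overlapped.

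Cyp2c55 (ENSMUSG00000025002, chromosome 19, 39007019 to 39042693 on GRCm38, plus strand) was at 725, 558, 2376 and 166 CPM in Degs2_KO replicates 1 to 4, against 1965, 254, 626 and 730 CPM in WT replicates 1 to 4. The highest library of each genotype was the one low in Hoxd13, and the groups overlapped over their whole range. The log2 fold change was 0.10 ± 0.80 (SE), with a 95% interval of the fold from 0.305 to 3.75, so the libraries do not fix its direction. Without Degs2_KO replicate 3 the log2 fold change was -0.89, without WT replicate 1 it was 0.84, and without both it was -0.15.

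The next genes along chromosome 19 shared this pattern. Cyp2c65, a gut P450 that acts on arachidonic acid, was at 80.7, 48.9, 283 and 42.2 CPM in Degs2_KO replicates 1 to 4, against 267, 25.0, 36.7 and 115 CPM in WT replicates 1 to 4. Cyp2c66, its close copy, was at 0.120, 0.0237, 3.07 and 0 CPM in Degs2_KO and at 5.11, 0.0238, 0 and 0.358 CPM in WT; it did not pass the count filter. In both genes Degs2_KO replicate 3 and WT replicate 1 exceeded the other 6 libraries. Of the 50-base words in Cyp2c65 transcripts 20.6% also occur in another gene, mostly Cyp2c66, so the split of reads between these copies is uncertain.

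Cyp2c68, on the opposite strand of the same gene cluster, ran the other way. It was at 99.6, 92.9, 41.7 and 55.2 CPM in Degs2_KO replicates 1 to 4, against 29.6, 108, 134 and 73.6 CPM in WT replicates 1 to 4. Here the 2 libraries low in Hoxd13 were the lowest of the 8. Cyp2c69 showed neither order, at 6.38, 8.78, 6.95 and 4.10 CPM in Degs2_KO, against 5.11, 4.76, 8.36 and 5.03 CPM in WT. Cyp2c40, Cyp2c67, Cyp2c68 and Cyp2c69 share between 43.3% and 60.3% of their 50-base words with other genes, and their levels are uncertain to that extent.

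The sequences before the starts of these neighbouring genes are shown because the genes differ so much between libraries while lying in 1 cluster on chromosome 19. Each is the 250 bases upstream of the RefSeq start (GRCm38.p6), written 5′ to 3′ on the strand of the gene, with capitals for matches on either strand to the words named after the sequences.
Cyp2c55, chr19:39006769-39007018, plus strand: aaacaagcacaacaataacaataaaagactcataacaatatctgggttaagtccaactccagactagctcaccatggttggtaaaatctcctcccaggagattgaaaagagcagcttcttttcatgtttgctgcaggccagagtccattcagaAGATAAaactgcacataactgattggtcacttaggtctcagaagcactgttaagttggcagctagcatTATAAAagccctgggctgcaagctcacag
Cyp2c65, chr19:39060756-39061005, plus strand: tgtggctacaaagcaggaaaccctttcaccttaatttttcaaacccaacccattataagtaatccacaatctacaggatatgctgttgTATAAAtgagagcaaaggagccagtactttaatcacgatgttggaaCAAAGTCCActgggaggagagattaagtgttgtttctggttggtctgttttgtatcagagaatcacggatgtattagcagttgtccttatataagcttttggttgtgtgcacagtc
Cyp2c66, chr19:39113648-39113897, plus strand: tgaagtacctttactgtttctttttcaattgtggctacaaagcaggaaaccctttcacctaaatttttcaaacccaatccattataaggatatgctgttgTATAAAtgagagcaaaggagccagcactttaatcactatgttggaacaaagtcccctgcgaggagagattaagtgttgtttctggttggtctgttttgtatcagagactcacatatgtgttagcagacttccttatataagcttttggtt
Cyp2c68, chr19:39741102-39741351, minus strand: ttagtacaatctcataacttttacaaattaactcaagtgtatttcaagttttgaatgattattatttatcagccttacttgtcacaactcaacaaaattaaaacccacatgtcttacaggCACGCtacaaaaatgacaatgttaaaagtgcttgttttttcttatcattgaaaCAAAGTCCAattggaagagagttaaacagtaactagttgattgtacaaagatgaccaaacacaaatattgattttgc
The words searched on both strands were TATAAA (a core promoter word), CAAAGTCCA (HNF4), the HNF1 palindrome, CATAAA (CDX), CCAATAAA and CTCGTAAA (HOX13), AGATAA (a word of zinc finger factors of the GATA family) and GCGTG (AHR core). Cyp2c65 and Cyp2c66 were identical in 74.6% of aligned columns, against 46.6% for Cyp2c55 with Cyp2c68 and 45.5% for Cyp2c65 with the unrelated promoter of Cyp4b1. TATAAA stood 29 bases before the start of Cyp2c55, but 162 bases before that of Cyp2c65 and 150 bases before that of Cyp2c66. The HNF4 word stood 116 bases before the start of Cyp2c65 and 77 bases before that of Cyp2c68, genes with opposite orders of libraries. HNF4 is the nuclear receptor named for hepatocytes that also acts in the gut epithelium. RefSeq promoters were matched for 69 members, of which 10 held this word (14.5%), among them Cyp2c40, Cyp2c67 and Cyp2c69, compared with 0.381% of 27025 promoters of all genes. Cyp2c40, Cyp2c65, Cyp2c67, Cyp2c68 and Cyp2c69 are copies of each other in part. So are Cyp3a11, Cyp3a16, Cyp3a41a and Cyp3a41b, which also held the word and did not pass the count filter. These matches are therefore not independent. Neither HOX13 word occurred in the window of any of the 69 members, nor did the HNF1 word. Over all promoters CCAATAAA occurred in 1.095%, CTCGTAAA in 0.126% and the HNF1 word in 0.0074%. With words this rare, their absence from 69 windows says little about the members. CATAAA occurred in 11 of 69 members (15.9%) and 11.1% of all promoters, and GCGTG in 13 of 69 members (18.8%) and 28.2%. TATAAA occurred in 26 members (37.7%) and 13.0% of all promoters, and AGATAA in 13 members (18.8%) and 10.3%. Of the 25 tested members with a promoter, 7 held TATAAA (28%) and 4 held AGATAA (16%). The TATAAA matches also include copies, such as Cyp3a41a and Cyp3a41b, and are not independent. A match is a description of letters only.

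Several P450 genes outside that cluster were higher in both libraries low in Hoxd13. Cyp4b1, an enzyme that activates foreign compounds in lung and gut, was at 0.265, 0.356, 25.1 and 0.427 CPM in Degs2_KO replicates 1 to 4, against 23.1, 0.0952, 0.406 and 1.93 CPM in WT replicates 1 to 4. Its highest library was 263 times its lowest, the widest spread of the 33 tested genes. The log2 fold change of Cyp4b1 was 0.03 ± 1.74, but -4.18 ± 1.71 without Degs2_KO replicate 3 (unadjusted p 0.0400 by edgeR), 3.02 ± 1.82 without WT replicate 1 and -1.20 ± 0.90 without both. Cyp3a44, of the steroid-oxidising subfamily 3a, was at 1.89 CPM in Degs2_KO replicate 3 and listed at 0 in the other Degs2_KO libraries, against 1.86 CPM in WT replicate 1, 0.0955 CPM in WT replicate 4 and 0 in the remaining WT libraries. In these genes the 2 libraries stood far above the rest of their groups. Cyp2d26 was at 13.5, 16.4, 36.7 and 12.5 CPM in Degs2_KO replicates 1 to 4, against 54.4, 16.8, 15.5 and 20.04 CPM in WT replicates 1 to 4. Cyp2j6, of a subfamily of arachidonic acid epoxygenases, was at 69.9, 61.4, 93.5 and 57.4 CPM in Degs2_KO, against 95.8, 54.8, 59.9 and 65.7 CPM in WT. Cyp4b1 and Cyp3a44, like Cyp2c66, Cyp2d12 and Cyp2f2, are described because their values were seen to differ between libraries.

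Others were lower in both of these libraries. Cyp2f2, known from the airway for activating naphthalene, was at 5.83 CPM in Degs2_KO replicate 3 and 5.95 CPM in WT replicate 1, whereas every other library had at least 13.9 CPM. Cyp2d34, the most abundant Cyp2d gene, was at 239, 261, 130 and 212 CPM in Degs2_KO replicates 1 to 4, against 158, 243, 263 and 375 CPM in WT replicates 1 to 4. Cyp27a1, the mitochondrial sterol hydroxylase of bile acid synthesis, was at 13.1, 11.01, 7.43 and 8.87 CPM in Degs2_KO replicates 1 to 4, against 5.61, 17.02, 19.1 and 14.1 CPM in WT replicates 1 to 4.

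Counted over the tested P450 genes, Degs2_KO replicate 3 and WT replicate 1 were the 2 highest libraries for 7 of 33 (21.2%) and the 2 lowest for 8 of 33 (24.2%). Over all 16132 tested genes these shares were 17.8% and 16.6%, so neither count stands far from the background. The 7 were Cyp2c55, Cyp2c65, Cyp2j6, Cyp2d26, Cyp4b1, Cyp2j9 and Cyp2u1, and the 8 were Cyp2d34, Cyp2c68, Cyp2d10, Cyp2f2, Cyp2d12, Cyp27a1, Cyp2d40 and Cyp2c23. The spread over all 8 libraries, whichever were highest and lowest, was larger than for most genes. The highest library was a median of 2.79 times the lowest for the P450 genes and 1.57 times for all tested genes. Of the 33, 8 exceeded the 90th percentile of all genes, 3.92 times. Several lists of cell and position markers also set these libraries apart. The colon position list (7 of 8 genes matched, with Hoxd11 and Hoxd12 at 0 in both libraries) summed to 424 CPM in Degs2_KO replicate 3 and to between 723 and 797 CPM in the other Degs2_KO libraries, against 451 CPM in WT replicate 1 and at least 774 CPM in the other WT libraries. The list of absorptive colonocyte genes (9 of 9) summed to 15520 CPM in Degs2_KO replicate 3 and 14736 CPM in WT replicate 1, whereas the others reached at most 12171 CPM. Car1 carried that difference, at 6570 CPM in Degs2_KO replicate 3 and 6179 CPM in WT replicate 1 and at most 1941 CPM elsewhere. Without Car1, left out after its values were seen, the list gave 8950 and 8557 CPM in these libraries and up to 10230 CPM in the others, and its members Slc20a1 and Ceacam20 were lowest in these 2 libraries. Enteroendocrine genes (7 of 7) summed to 348 CPM in Degs2_KO replicate 3 and 245 CPM in WT replicate 1, whereas the others reached at most 184 CPM. Chgb (175 and 117 CPM) and Chga (76.4 and 56.9 CPM) made up most of these sums. Cck and Gcg were also highest in these 2 libraries, whereas Neurod1, Tph1 and Pyy (20.8 and 20.4 CPM) did not show that order. Tuft cell genes (7 of 7) gave 72.5 CPM in Degs2_KO replicate 3 and 70.4 CPM in WT replicate 1, with at most 49.1 CPM elsewhere, and T cell genes (6 of 6) 11.5 and 14.6 CPM, with at most 8.80 CPM elsewhere. Il25 of the tuft cell list and Cd3d, Cd4 and Trac of the T cell list did not show that order. The sum of goblet cell genes (6 of 8, since estimates for Clca1 and Fcgbp had failed) split the pair, lowest in Degs2_KO replicate 3 at 5890 CPM and highest in WT replicate 1 at 29328 CPM. Muc2 carried that split, at 522 CPM in Degs2_KO replicate 3 and 24564 CPM in WT replicate 1. Spdef was highest in these 2 libraries (155 and 135 CPM) and Tff3 lowest (291 and 285 CPM), while Zg16, Agr2 and Spink4 showed neither order. The summed level of genes listed for small intestine and proximal gut (11 of 11), made up mostly of Apob and Gata6, did not separate them, at between 175 and 323 CPM in Degs2_KO libraries and between 186 and 342 CPM in WT libraries. Of its members, Sis (6.38 CPM in Degs2_KO replicate 3 and 13.9 CPM in WT replicate 1), Alpi (44.1 and 31.4 CPM), Fabp6 (4.63 and 4.34 CPM) and Gata5 (2.23 and 1.95 CPM) were highest in these 2 libraries, with at most 0.668, 19.2, 2.20 and 1.29 CPM elsewhere. The remaining members, Gata4, Gata6, Apoa1, Apoa4, Apob, Rbp2 and Lct, did not show that order. The sum of liver genes (7 of 7) was lowest in both, at 10.6 CPM in Degs2_KO replicate 3 and 13.4 CPM in WT replicate 1. It reached up to 40.4 CPM in the other Degs2_KO libraries and up to 59.5 CPM in the other WT libraries. Ttr (7.55 and 9.64 CPM in these 2 libraries) and Trf (2.09 and 2.92 CPM) made up most of it. Fgb was at 0 in every library and Alb at most at 1.73 CPM. The part of position or cell makeup in the P450 levels was not tested, and in bulk samples fewer cells of a type and less RNA per cell cannot be told apart.

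**Figure D2:**
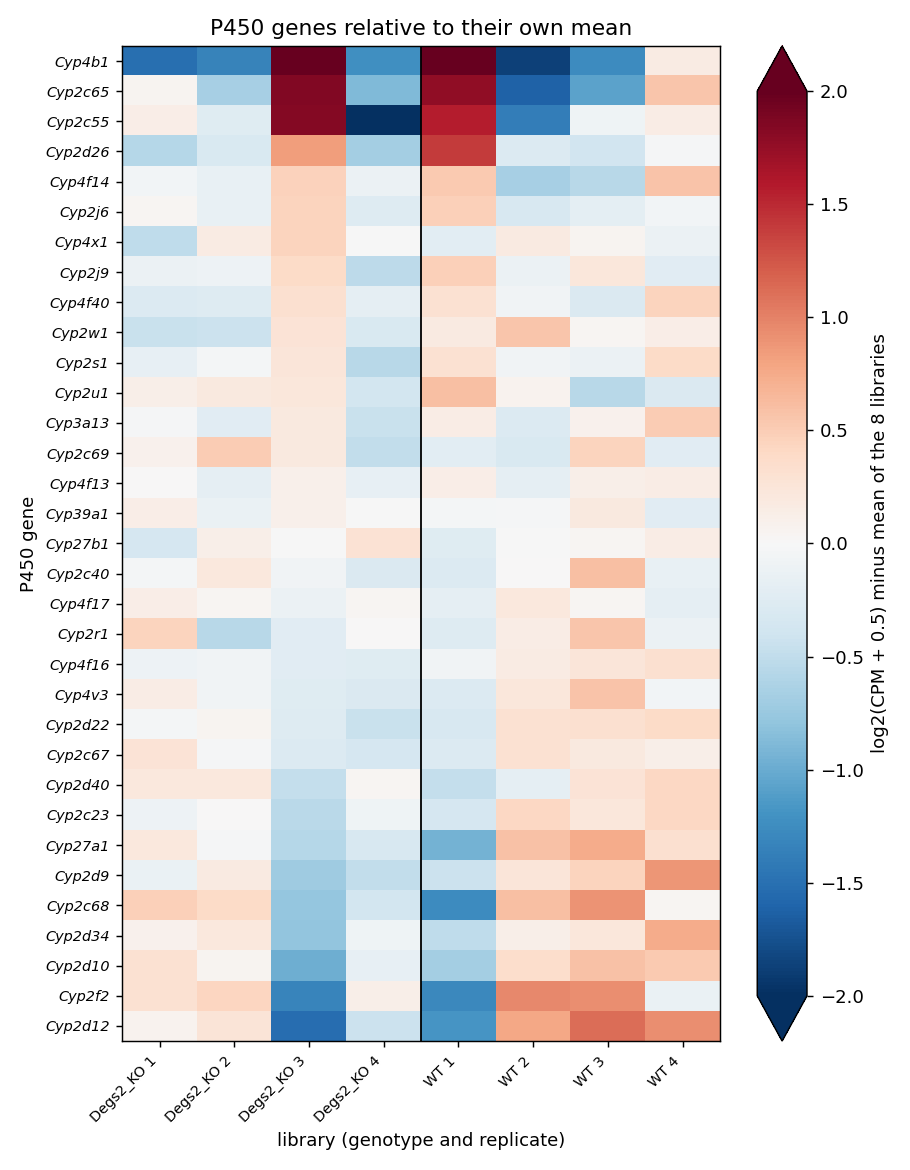
Heat map of the 33 tested P450 genes (rows) in 4 Degs2_KO and 4 WT libraries (columns), as log2(CPM + 0.5) minus the gene's mean over the 8 libraries. Red is above and blue below the mean, with colours ending at 2 on either side; Degs2_KO replicate 3 and WT replicate 1 share their strongest reds (Cyp4b1, Cyp2c65, Cyp2c55) and blues (Cyp2d12, Cyp2f2).

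**Figure D3:**
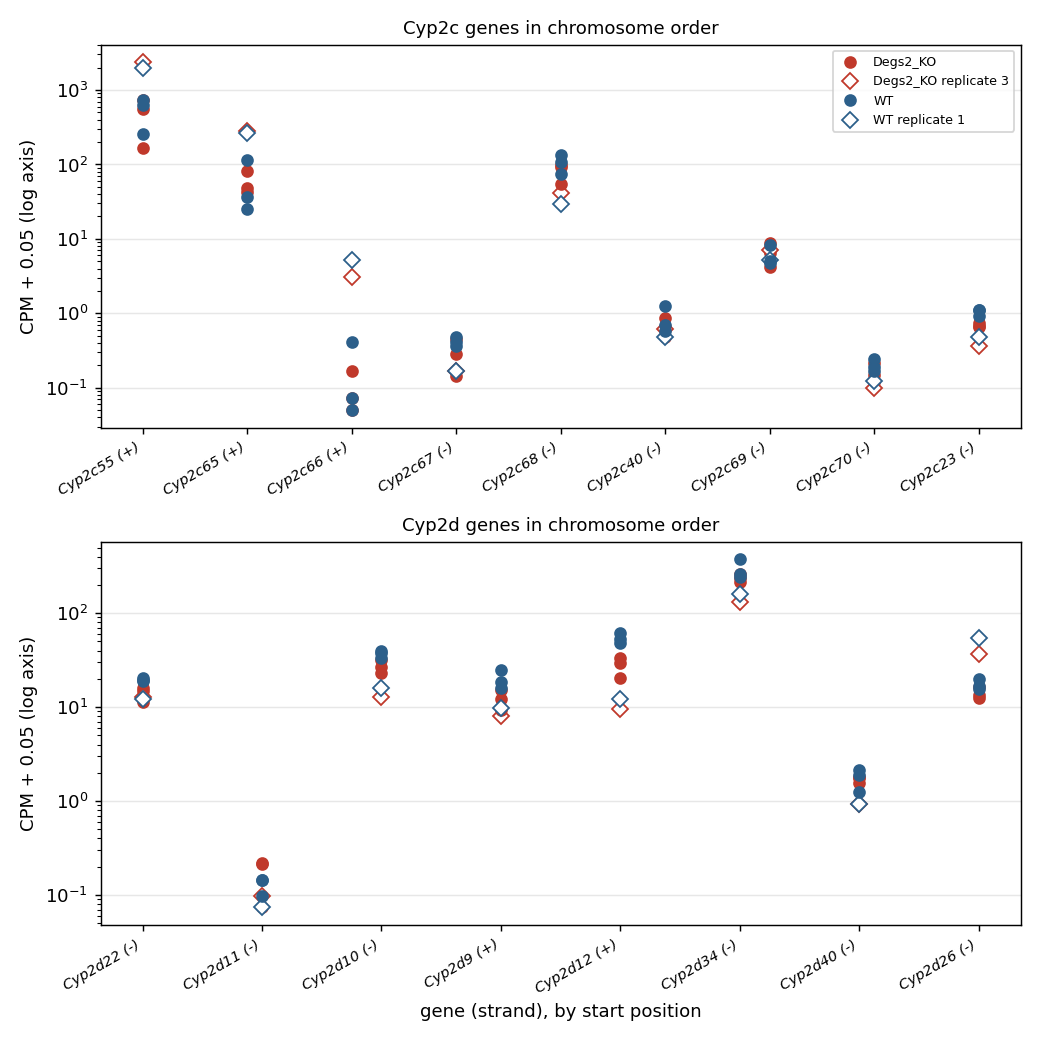
CPM + 0.05 (log axis) of Cyp2c genes (upper panel) and Cyp2d genes (lower panel) with a mean above 0.05 CPM, in chromosome order with the strand in brackets. Red is Degs2_KO, blue is WT and open diamonds are Degs2_KO replicate 3 and WT replicate 1, which lie at the top for Cyp2c55, Cyp2c65, Cyp2c66 and Cyp2d26 and at the bottom for Cyp2c68 and Cyp2d12.

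Between the genotypes, no P450 gene passed the adjusted threshold. edgeR's quasi-likelihood test called 0 of 33 after Benjamini-Hochberg adjustment over all 16132 genes (0% called), and the smallest adjusted p among them was 0.9996. Only 1 P450 gene lay under an unadjusted p of 0.05, lower in Degs2_KO, where 1.13% of all tested genes lay under that threshold (0.806% lower and 0.329% higher). DESeq2, which kept more low genes, found 4 of 63 P450 genes (0.969% of all genes) and limma-trend 2 of 33 (1.15%), also with 0 past adjustment. The log2 fold change was below 0 for 23 of the 33 (69.7%) and for 52.6% of all tested genes, with a median of -0.23 for the P450 genes and -0.01 for all genes. The 95% interval of the fold lay within 2-fold for 17 of the 33 P450 genes and for 81.9% of all tested genes, so for the rest of the P450 genes a 2-fold difference lay within the interval. The 4 genes under an unadjusted p of 0.05 in DESeq2 were Cyp11a1, Cyp4f16, Cyp3a11 and Cyp2d9. Of these, Cyp11a1 and Cyp3a11 were not among the 33. All 7 genes of the colon position list had log2 fold changes below 0 (median -0.47, 0 called). So had 8 of 9 absorptive colonocyte genes (median -0.14) and all 4 tested fibroblast genes (median -0.98), while all 6 tested tuft cell genes had values above 0 (median 0.30), with 0 called in each list. Fibroblast genes summed to between 1.33 and 15.9 CPM in Degs2_KO and between 4.05 and 30.8 CPM in WT. For all of these lists their part in the genotype values was not tested.

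The gene with the smallest p was Cyp4f16, of the subfamily that omega-hydroxylates leukotrienes and other fatty acids. Cyp4f16 (ENSMUSG00000048440, chromosome 17, 32536558 to 32551798 on GRCm38, plus strand) was at 46.3, 47.1, 42.2 and 42.0 CPM in Degs2_KO replicates 1 to 4, against 47.5, 55.5, 59.1 and 61.9 CPM in WT replicates 1 to 4. Every Degs2_KO library lay below every WT library, though the nearest values were 47.1 and 47.5 CPM. The means were 44.4 ± 2.67 CPM in Degs2_KO and 56.0 ± 6.27 CPM in WT (SD, n = 4 each), a log2 fold change of -0.33 ± 0.09 (SE), or 1.26-fold lower (95% interval 1.09 to 1.46). The unadjusted p was 0.00632 and the adjusted p 0.9996 by edgeR's quasi-likelihood test, and without both libraries low in Hoxd13 they were 0.00198 and 0.999 at a log2 fold change of -0.38. It was the only P450 gene whose groups did not overlap (3.03% of 33, against 1.04% of all tested genes, 0.558% lower and 0.484% higher). Of its 50-base words 17.4% also occur elsewhere, mostly in Cyp4f37.

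Its neighbours in subfamily 4f did not show the same separation. Cyp4f14 was at 104, 98.7, 150 and 101 CPM in Degs2_KO replicates 1 to 4, against 157, 68.4, 73.7 and 162 CPM in WT replicates 1 to 4, a log2 fold change of -0.02 ± 0.30. Cyp4f40 was at 29.4, 29.8, 44.7 and 31.5 CPM in Degs2_KO, against 44.1, 33.9, 28.9 and 48.9 CPM in WT. Both genes were high in Degs2_KO replicate 3 and in WT replicates 1 and 4. Cyp4f13 was at 34.6 ± 3.42 CPM in Degs2_KO and 37.5 ± 3.86 CPM in WT (SD, n = 4 each). Cyp4f17 was at 1.999, 1.83, 1.61 and 1.85 CPM in Degs2_KO, against 1.52, 2.14, 1.84 and 1.503 CPM in WT, a log2 fold change of 0.06 ± 0.18. The Degs2_KO and WT ranges overlapped in each of these genes.

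The Cyp2d genes, a drug-oxidising subfamily clustered on chromosome 15, had log2 fold changes below 0 for all 7 tested members, with a median of -0.41. Cyp2d12 (ENSMUSG00000096852, chromosome 15, 82555072 to 82560403, plus strand) had the lowest of all P450 genes, -0.92 ± 0.51 (unadjusted p 0.104 by edgeR). It was at 29.3, 33.5, 9.42 and 20.6 CPM in Degs2_KO replicates 1 to 4, against 12.2, 48.3, 61.5 and 53.7 CPM in WT replicates 1 to 4. WT replicate 1 alone lay among the Degs2_KO values. Without Degs2_KO replicate 3 and WT replicate 1 the ranges were 20.6 to 33.5 CPM in Degs2_KO and 48.3 to 61.5 CPM in WT, and the log2 fold change was -0.97 ± 0.18 with an unadjusted p of 8.6e-04 and an adjusted p of 0.999. Of its 50-base words 7.61% are shared with other genes, mostly Cyp2d9.

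Cyp2d9 was at 12.1, 15.2, 7.98 and 9.35 CPM in Degs2_KO replicates 1 to 4, against 9.76, 15.95, 18.4 and 25.1 CPM in WT replicates 1 to 4 (log2 fold change -0.63 ± 0.29, unadjusted p 0.0606). Cyp2d22 was at 14.98, 16.04, 12.8 and 11.2 CPM in Degs2_KO, against 12.3, 19.1, 19.4 and 20.2 CPM in WT (-0.37 ± 0.18, unadjusted p 0.0699). In both genes WT replicate 1 alone lay within the Degs2_KO range. Cyp2d10 was at 31.9, 26.9, 12.8 and 22.9 CPM in Degs2_KO, against 15.9, 33.1, 39.1 and 37.5 CPM in WT (-0.41 ± 0.33). Cyp2d10 shares 35.8% of its 50-base words with other genes, mostly Cyp2d11, which reached at most 0.169 CPM in Degs2_KO and 0.0954 CPM in WT. Without both libraries low in Hoxd13, 8 of 33 P450 genes lay under an unadjusted p of 0.05 by edgeR, all lower in Degs2_KO. Of all 16214 tested genes 650 (4.01%) did, 380 of them lower in Degs2_KO. The 8 P450 genes were Cyp2d9, Cyp2d10, Cyp2d12, Cyp2d22, Cyp27a1, Cyp2c23, Cyp2w1 and Cyp4f16, and 0 passed adjustment (smallest adjusted p 0.999). Without WT replicate 1 alone the count of P450 genes was 7 of 34, all lower, against 4.78% of all genes (782, of which 373 were lower). It was 3 without Degs2_KO replicate 3 (1.78% of all genes) and 2 without Degs2_KO replicate 2 (0.834%). With no filter it was 6 of 66 (1.41% of all genes), of which Cyp4f16 and Cyp2d9 alone were among the 33. With 1 surrogate variable it was 7 of 33 (2.69%) and with the replicate block 1 of 33 (0.614%).

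Among the remaining abundant enzymes, Cyp3a13, the intestinal member of subfamily 3a, was at 133, 117, 156 and 99.9 CPM in Degs2_KO replicates 1 to 4, against 151, 113, 145 and 192 CPM in WT replicates 1 to 4. Cyp2s1, an epithelial P450 known for retinoid oxidation, was at 119, 130, 158 and 91.0 CPM in Degs2_KO, against 165, 126, 123 and 173 CPM in WT. The groups overlapped in both genes. Cyp2w1, which in humans is known from colon tumours, was at 1.13, 1.16, 2.21 and 1.30 CPM in Degs2_KO, against 2.02, 2.76, 1.79 and 1.93 CPM in WT (log2 fold change -0.55 ± 0.27, unadjusted p 0.0693). There only Degs2_KO replicate 3 lay within the WT range. Cyp4x1 was at 0.241, 0.688, 0.935 and 0.546 CPM in Degs2_KO, against 0.410, 0.690, 0.597 and 0.477 CPM in WT. Cyp2c69 at 0.17 ± 0.26, Cyp4x1 at 0.15 ± 0.39 and Cyp4f17 were among the 4 genes with a positive log2 fold change and the smallest p, which ran from 0.528 to 0.766.

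**Figure D4:**
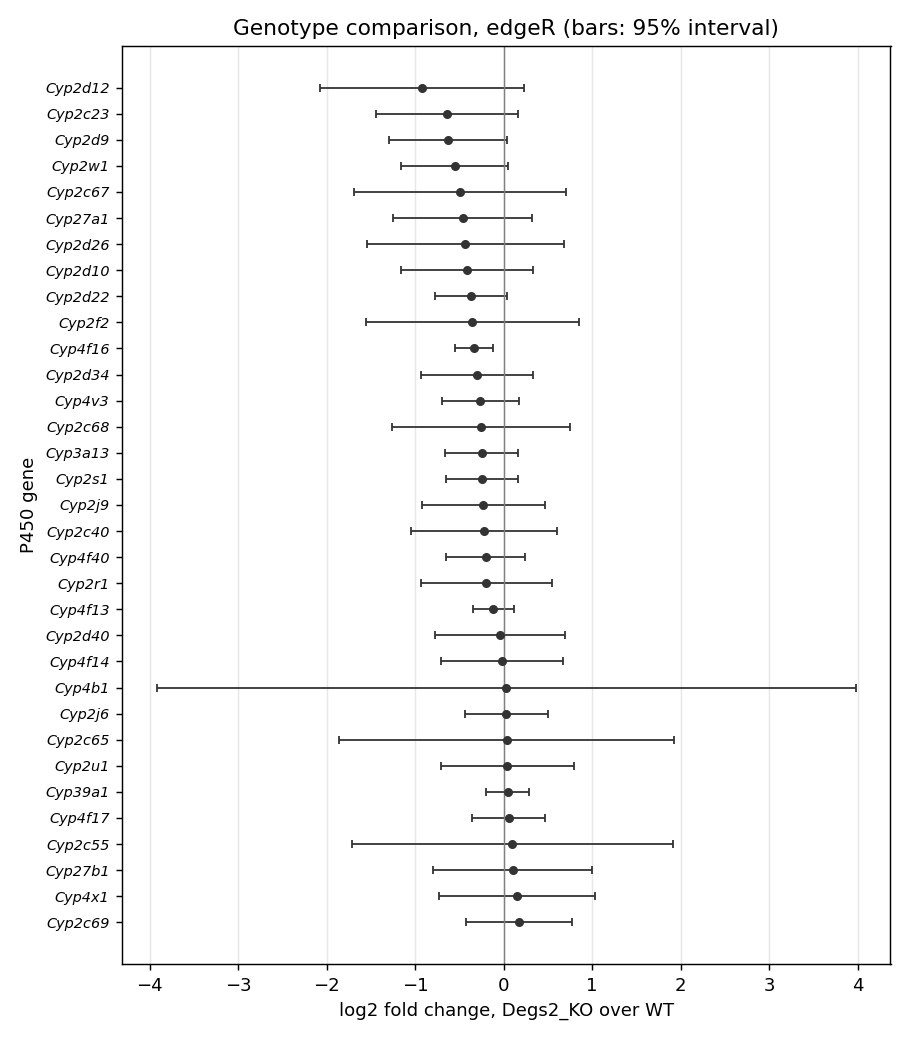
Log2 fold change of the 33 tested P450 genes, Degs2_KO over WT, from edgeR with bars for the 95% interval, ordered by size. Points run from -0.92 (Cyp2d12) to 0.17 (Cyp2c69), the bar of Cyp4f16 alone does not reach 0, and Cyp4b1 has the widest bar.

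Sterol and vitamin D enzymes were detected in part. Cyp39a1, an oxysterol hydroxylase of bile acid synthesis, was the steadiest of those named, at 29.4, 24.3, 28.6 and 26.4 CPM in Degs2_KO replicates 1 to 4, against 25.97, 26.1, 30.6 and 22.6 CPM in WT replicates 1 to 4. Its log2 fold change was 0.05 ± 0.11, with a 95% interval of the fold from 0.871 to 1.22. Cyp27a1 had a log2 fold change of -0.46 ± 0.34 with overlapping groups. Cyp2r1, a vitamin D hydroxylase of the liver, was at 1.72 ± 0.66 CPM in Degs2_KO and 1.97 ± 0.64 CPM in WT. Cyp27b1, which makes active vitamin D, was at 0.144, 0.380, 0.312 and 0.498 CPM in Degs2_KO, against 0.193, 0.310, 0.334 and 0.406 CPM in WT. Cyp24a1, which breaks vitamin D down and is induced through its receptor, was at most at 0.0712 CPM in Degs2_KO and 0.0241 CPM in WT, about the limit that a count of 0 allows, while the receptor gene Vdr was at 507 ± 70.3 CPM in Degs2_KO and 544 ± 82.3 CPM in WT (SD, n = 4 each).

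The P450 genes of steroid hormone synthesis and the family 1 genes that the dioxin receptor AHR induces were at or near 0. Cyp11a1, which starts steroid synthesis from cholesterol, was at 0.144, 0.0712, 0.0240 and 0.0237 CPM in Degs2_KO, against 0.0723, 0.310, 0.239 and 0.191 CPM in WT, too few fragments for the count filter. In the fits that keep it, Cyp11a1 had a log2 fold change of -1.62 ± 0.82 (DESeq2, unadjusted p 0.0480) and -1.58 ± 0.65 (edgeR with no filter, unadjusted p 0.0344), and neither passed adjustment. Cyp11b1 and Cyp17a1 were listed at 0 in all Degs2_KO libraries and at most at 0.0239 and 0.0955 CPM in WT libraries, and Cyp11b2 was at 0 in all 8. Cyp1a1, the usual readout of AHR, was at most at 0.0237 CPM in Degs2_KO and 0.0239 CPM in WT, and Cyp1b1 at most at 0.0241 CPM in Degs2_KO and 0 in WT. Ahr itself was at 20.99 ± 2.71 CPM in Degs2_KO and 21.6 ± 3.45 CPM in WT. Levels of other genes listed with AHR and with steroid enzymes were mixed. Nqo1, another AHR target, was at 41.8 ± 23.7 CPM in Degs2_KO and 40.7 ± 22.8 CPM in WT (SD, n = 4 each). It was highest in Degs2_KO replicate 3 (76.0 CPM) and WT replicate 1 (75.0 CPM), with at most 35.8 CPM elsewhere. Hsd11b2 was at 305 ± 54.1 CPM in Degs2_KO and 333 ± 96.2 CPM in WT. It was lowest in Degs2_KO replicate 3 (225 CPM) and WT replicate 1 (189 CPM), with at least 326 CPM elsewhere. In contrast, Ahrr reached at most 0.120 CPM in Degs2_KO and 0.217 CPM in WT. Hsd11b1 reached at most 0.0712 CPM in Degs2_KO and 0.0964 CPM in WT, and Hsd3b1, Hsd3b6 and Hsd17b1 were also near 0.

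No partner gene of the P450 enzymes passed the adjusted threshold. Of 12 tested genes of electron transfer and haem supply, 0 passed the adjusted threshold and 0 lay under an unadjusted p of 0.05, with 8 higher and 4 lower in Degs2_KO and a median log2 fold change of 0.03. Por, the reductase, was at 108, 115, 193 and 100.2 CPM in Degs2_KO replicates 1 to 4, against 175, 107, 101 and 131 CPM in WT replicates 1 to 4, highest in both libraries low in Hoxd13. Alas1, the first enzyme of haem synthesis, had a log2 fold change of 0.30 ± 0.18 and Cyb5b 0.10 ± 0.10. Of 23 tested sensing receptors and cofactors 0 passed and 1 lay under an unadjusted p of 0.05 (Hnf4g, 0.0477 by edgeR), 5 were higher and 18 lower, with a median of -0.07; Hnf4g had -0.24 ± 0.10, and Hnf4a was not tested because an estimate had failed. Of 22 tested steroid partners 0 passed, with 14 higher and 8 lower and a median of 0.01 (Srd5a1 0.19 ± 0.10, Akr1c18 0.67 ± 0.81). Of 18 tested epoxide and eicosanoid enzymes 0 passed, with 12 higher and 6 lower and a median of 0.06 (Ptges3 0.22 ± 0.10, Alox5ap 0.38 ± 0.26). Of 10 listed genes of other P450 families Cyp20a1 alone was tested, at 18.97 ± 2.84 CPM in Degs2_KO and 17.7 ± 1.92 CPM in WT (SD, n = 4 each).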

How the data were processed

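RNA-seq of EDTA-released distal colon epithelium gave 4 Degs2_KO and 4 WT libraries. The authors deposited estimated counts per gene from Cuffdiff, scaled between libraries; per the submitters' processing notes, cutadapt 1.9, TopHat2 2.0.10, Cufflinks 2.1.1 and mm10 were used. Strand setting and annotation: not given in the sources used here. 24 other value columns were not used. From the steps between low values, 1 fragment was worth between 0.871 and 1.31 deposited counts. Estimated counts were rounded, and 47 genes with a failed or overloaded estimate were left out. Low genes were removed by filterByExpr (count 10, total 15); the rest were scaled by TMM and tested with edgeR 4.0.16 (quasi-likelihood, Benjamini-Hochberg at 0.05 over all genes) in R 4.3.3, which was tested on simulated data. CPM values are TMM-normalised; lengths are unions of GENCODE M21 exons. Shared 50-base words were counted between annotated transcripts. DESeq2 1.42.0, limma 3.58.1 and sva 3.50.0 served as alternatives.

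Values per library were given for the 12 highest genes per kb, the 4 with the smallest p in each direction, and tested genes of families 1, 11, 24, 27 and 39; from other lists the 2 with the smallest p were named, except 1 gene that is not reported here. Genes outside this rule were chosen after their values were seen. The members and lists were chosen with earlier results of these data known. Promoters are from RefSeq (GRCm38.p6), where 69 of 89 genes matched.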

Additional observations from a re-analysis of the deposited data

Results flagged for a closer look

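In 66 groups of 4 libraries (33 tested P450 genes in 2 genotypes), 11 times a single library stood apart from the other 3 of its group by Dixon's 95% criterion. That criterion is met in about 1 of 20 independent groups of normally distributed values. The 66 groups come from the same libraries and are not independent. The share over all tested genes was not counted, so the 11 are a description and not an excess for P450 genes. Of the 11, 9 concerned Degs2_KO replicate 3 or WT replicate 1. Cyp2c66 and Cyp3a44, which did not pass the count filter, are given beside them because their values were seen to stand apart, and do not enter these counts.

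Degs2_KO replicate 3 was high for Cyp2c65 at 282.5 CPM (next 80.7), Cyp4f14 at 149.8 CPM (next 104), Cyp4f40 at 44.74 CPM (next 31.5) and Cyp2w1 at 2.206 CPM (next 1.305). Both Degs2_KO replicate 3 and WT replicate 1 were high for 4 genes. Cyp2d26 was at 36.73 CPM (next 16.4) in Degs2_KO and 54.38 CPM (next 20.04) in WT. Cyp4b1 was at 25.05 CPM (next 0.427) in Degs2_KO and 23.13 CPM (next 1.93) in WT. Cyp2c66 was at 3.069 CPM (next 0.120) in Degs2_KO and 5.108 CPM (next 0.358) in WT. Cyp3a44 was at 1.894 CPM (next 0) in Degs2_KO and 1.855 CPM (next 0.0954) in WT.

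WT replicate 1 was low for Cyp2d22 at 12.26 CPM (next 19.1). In other libraries, WT replicate 2 was low for Cyp4f13 at 31.71 CPM (next 38.9) and WT replicate 3 high for Cyp2c69 at 8.356 CPM (next 5.11).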

How the results depend on the processing

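The count of P450 genes past the adjusted threshold was 0 under all 18 alternative settings and at adjusted thresholds of 0.10 and 0.01. The count at an unadjusted p under 0.05, which was 1 of 33, became 4 of 63 with DESeq2, 2 of 33 with limma-trend and 6 of 66 with no filter. It became 7 of 33 with 1 surrogate variable and 8 of 33 without both Degs2_KO replicate 3 and WT replicate 1. Leaving out 1 library gave between 1 and 7. With 1 library left out the median over P450 genes lay between -0.27 and -0.15 (log2), and without both it was -0.30. The cause of these shifts was not tested.

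Of 21 named genes 11 never changed direction, and 34 of 376 alternative values were reversed, with 0 crossing the adjusted threshold. Cyp2c55 became -0.13 with limma-trend, -0.13 with the replicate block, -0.16 with 1 surrogate variable and -0.15 without both libraries. Cyp2c65 became -0.0036 with 1 surrogate variable and -0.04 without both. Cyp4f14 became 0.070 with limma-trend, 0.067 with the replicate block and 0.0023 without both. Cyp2j6 became -0.0035 with 1 surrogate variable, and without both libraries Cyp4x1 became -0.25 and Cyp27b1 -0.03. With 1 library left out the ranges were -0.89 to 0.84 for Cyp2c55, -0.95 to 0.96 for Cyp2c65, -0.20 to 0.19 for Cyp4f14, -0.54 to 0.038 for Cyp2c68, -0.14 to 0.24 for Cyp2j6, -0.92 to 0.19 for Cyp2d26, -0.021 to 0.13 for Cyp39a1, -0.010 to 0.17 for Cyp4f17, -0.14 to 0.42 for Cyp4x1 and -0.15 to 0.36 for Cyp27b1.

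Same-numbered libraries did not deviate together (correlations of -0.42, 0.44, -0.56 and -0.10 for numbers 1 to 4), so the numbers were not taken as pairs. With the replicate block 1 P450 gene, Cyp4f16, lay under an unadjusted p of 0.05 (0.0290), and the median was -0.22. The length of the longest transcript, an alternative chosen after seeing the data, kept 11 of the 12 highest genes. Genes below the limit that 3 fragments allow could not be compared.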

Other observations

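Among P450 loci that do not code for protein, Cyp2d37-ps on chromosome 15 had the highest level. It was at 5.13, 5.57, 4.17 and 5.57 CPM in Degs2_KO replicates 1 to 4, against 5.69, 4.29, 3.92 and 7.06 CPM in WT replicates 1 to 4, with overlapping groups and a log2 fold change of -0.03 ± 0.21 (SE). Of the other P450 families, Cyp19a1 (aromatase), Cyp21a1 (a steroid hydroxylase of the adrenal) and Cyp7a1 (the first enzyme of classical bile acid synthesis) were listed at 0 in all 8 libraries.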
